A study of Mus musculus with 19 samples.

Results

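SOX3 occupancy was described here at the microRNA (miRNA) gene loci of the mouse genome. The loci were all genes of biotype miRNA with a Mir or Mirlet7 symbol in the RefSeq annotation of mm10, and each was represented by its hairpin, the stem-loop from which the mature miRNA is cut. There were 1180 such hairpins, out of 1228 RefSeq genes of biotype miRNA; the other 48 carry other symbols. Hairpins within 10 kb of each other were merged into 905 loci. Occupancy was taken from 2 replicates of SOX3 ChIP-seq on mouse testis at postnatal day 7 (P7), with 58351 peaks in replicate 1 and 38832 in replicate 2. The ChIP used SOX3 antibodies of SCBT and EMD Millipore on chromatin of seminiferous tubules pooled from several mice, and no genetic change is labelled for these mice. The tubules hold Sertoli cells as well as the germ cells, so a peak could not be assigned to a cell type, fewer occupied cells and weaker occupancy per cell cannot be told apart, and the peak lists hold no expression by which the labelled tissue could be checked. A further 2 samples, SOX3 ChIP-nexus from the same tissue, were used for 1 comparison, and the other 15 of the 19 samples were not analysed here.

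A miRNA is made in steps. RNA polymerase II transcribes a long primary transcript, the Microprocessor complex cuts the hairpin out of it in the nucleus, and Dicer cuts the mature miRNA from the hairpin in the cytoplasm. Many hairpins sit in introns of protein-coding or long noncoding host genes and share the host's promoter, whereas others have a promoter of their own that can lie many kilobases upstream of the hairpin. The mature miRNA pairs with target mRNAs mainly through its seed, bases 2 to 8, so miRNAs with the same seed form a family. SOX3 is a SOX transcription factor of undifferentiated spermatogonia (uSPG), a population in which miRNAs of the let-7, miR-17 and miR-221/222 families are known to act.

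The families described by name are introduced first by their mature sequences, from RefSeq (GRCm38.p6), printed 5′ to 3′ with the seed in capitals. Of the 1180 hairpins, 1013 had a mature sequence in this table. The let-7 miRNAs, which rise as cells differentiate, and miR-98 share the seed GAGGUAG.
let-7i-5p: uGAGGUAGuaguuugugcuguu
let-7e-5p: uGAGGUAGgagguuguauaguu
let-7b-5p: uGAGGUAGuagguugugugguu
let-7d-5p: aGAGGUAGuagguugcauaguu
let-7g-5p: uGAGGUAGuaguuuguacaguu
miR-98-5p: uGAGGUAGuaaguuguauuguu

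The Mir17 cluster, known for promoting proliferation, has 2 paralogous clusters in the genome, Mir106b to Mir25 and Mir106a to Mir363. They share the seed AAAGUGC and, in their last members, the seed AUUGCAC. The Mir290 and Mir302 clusters of pluripotent cells carry the seed AAGUGCU, and the Mir302 cluster ends in miR-367 with the seed AUUGCAC. These sequences are shown because loci of the same seed differed in their peaks.
miR-17-5p: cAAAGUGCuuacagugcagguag
miR-106b-5p: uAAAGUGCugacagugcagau
miR-106a-5p: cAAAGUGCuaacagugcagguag
miR-291a-3p: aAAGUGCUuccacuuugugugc
miR-294-3p: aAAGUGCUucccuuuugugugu
miR-302b-3p: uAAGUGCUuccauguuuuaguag
miR-92a-3p: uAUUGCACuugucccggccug
miR-25-3p: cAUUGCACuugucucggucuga
miR-363-3p: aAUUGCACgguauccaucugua
miR-367-3p: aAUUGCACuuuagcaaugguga

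The X-linked pair miR-221 and miR-222, which restrain Kit in undifferentiated spermatogonia, share the seed GCUACAU. Mir202, a miRNA gene of the gonads, is shown because it had the highest q scores of any intergenic locus.
miR-221-3p: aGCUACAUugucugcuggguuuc
miR-222-3p: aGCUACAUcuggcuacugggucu
miR-202-5p: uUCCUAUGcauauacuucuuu
miR-202-3p: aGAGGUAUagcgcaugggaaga

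A peak was counted for a hairpin when its edge lay within 2 kb of the hairpin's edge. The peak lists give a q score for each peak, −10log10 of the adjusted p-value, with a minimum of 30. In replicate 1, 456 of the 1180 hairpins (38.6%) had a peak within 2 kb, and in replicate 2, 307 (26.0%) did, a mean of 32.3% ± 8.93 (SD, n = 2). Of all bases of the genome outside assembly gaps, 9.71% and 6.64% lay within 2 kb of a peak. Both replicates had a peak at 266 hairpins (22.5%), against 4.39% of bases. These 266 hairpins were 58.3% of those with a peak in replicate 1 and 86.6% of those in replicate 2, and they belonged to 233 loci. For 225 of the 266, a peak of one replicate covered at least 50% of a peak of the other. Neither replicate had a peak at 683 hairpins. Since a single peak can serve several hairpins of a cluster, the best peaks of replicate 1 behind the 266 hairpins were 235 different peaks, and 1 of them served 6 hairpins.

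To ask how occupancy depends on where a hairpin lies, hairpins were split by position against RefSeq genes that are not miRNAs. Promoter-near hairpins, within 2 kb of a transcription start site (TSS), had a peak most often. Of 190 such hairpins, 76.8% had a peak in replicate 1 and 67.9% in replicate 2 (mean 72.4% ± 6.33 (SD, n = 2)), where 59.3% and 50.7% of the bases within 2 kb of a TSS did. Of 117 hairpins overlapping an exon, 45.3% and 24.8% had one (35.0% ± 14.5), against 24.1% and 15.0% of exonic bases. Of 591 intronic hairpins, 30.3% and 17.3% did (23.8% ± 9.21), against 11.1% and 6.99% of intronic bases. Of 282 intergenic hairpins, 27.7% and 16.7% did (22.2% ± 7.77), against 5.17% and 3.29% of intergenic bases.

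In each replicate the promoter-near share was above the intronic and intergenic shares by more than the spread between replicates. The intronic and intergenic shares lay within 1 SD of each other. In both replicates each class stood above the bases of its own class, and the ratio to these bases rose from 1.30 and 1.34 at promoter-near hairpins to 5.35 and 5.06 at intergenic ones. A high base share limits the ratio, and the difference in percentage points did not rise in the same way. It was 17.5 and 17.2 at promoter-near hairpins, 21.2 and 9.81 at exonic, 19.2 and 10.3 at intronic and 22.5 and 13.4 at intergenic ones. Both replicates had a peak at 126 promoter-near hairpins (66.3%, exact binomial 95% interval 59.1% to 73.0%; bases 47.9%), 24 exonic (20.5%, 13.6% to 29.0%; bases 10.2%), 77 intronic (13.0%, 10.4% to 16.0%; bases 3.78%) and 39 intergenic hairpins (13.8%, 10.0% to 18.4%; bases 1.73%). These intervals cover counting error only, and hairpins of 1 locus are not independent.

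**Figure D1:**
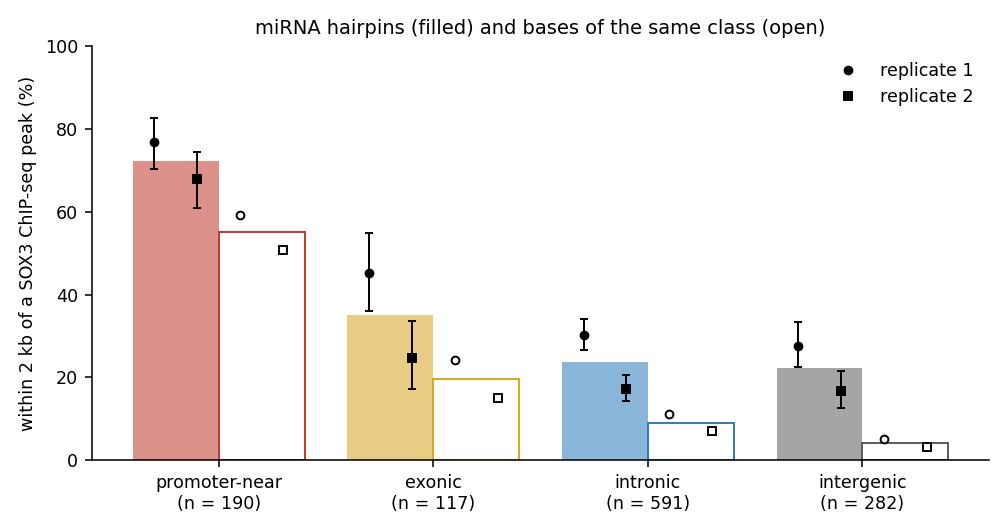
Share of miRNA hairpins within 2 kb of a SOX3 ChIP-seq peak (filled bars, mean of 2 replicates) and share of the genome's bases of the same position class (open bars, mean of 2 replicates), in percent. Points are the replicates, and error bars on hairpins are exact binomial 95% intervals; the promoter-near share of 72.4% stands above the intronic 23.8% and the intergenic 22.2%, and each filled bar stands above its open bar.

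The replicates ordered the classes alike by score too. The median best q score within 2 kb was 239 in replicate 1 and 115 in replicate 2 at promoter-near hairpins. It was 51.8 and 44.7 at exonic hairpins, 45.5 and 44.3 at intronic hairpins and 56.0 and 48.2 at intergenic hairpins. The difference between the promoter-near and intergenic medians was 183 in replicate 1 and 66.9 in replicate 2. The median log2 ratio of ChIP over input was also higher at promoter-near than at intergenic hairpins, 4.02 against 3.04 in replicate 1 and 2.99 against 2.73 in replicate 2. Scores were compared within each list only, because their scale depends on depth and the libraries differ in it: per the study's reporting summary, replicate 2, with fewer peaks, was sequenced more deeply.

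**Figure D2:**
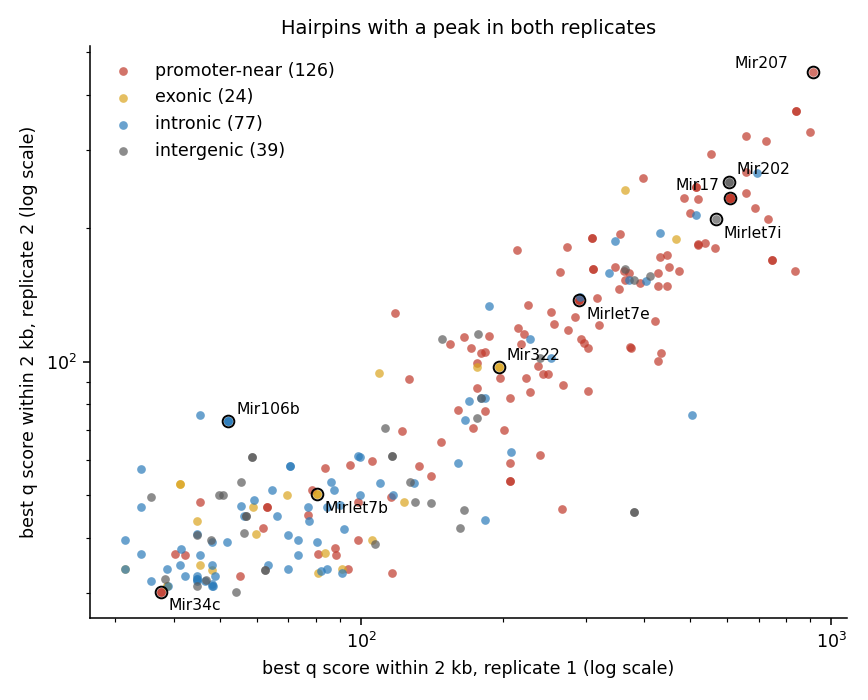
Best q score (−10log10 of the adjusted p-value) within 2 kb of each of the 266 hairpins with a peak in both replicates, replicate 1 against replicate 2, both axes on a log scale and coloured by position class. Only the labelled hairpins are circled. Mir207 lies at the top right with 912 and 451, Mirlet7i, Mir202 and Mir17 are among the high scores, and Mir34c lies near the threshold with 37.4 and 30.1.

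Where a peak was present, it covered the hairpin itself at 234 of 456 hairpins (51.3%) in replicate 1 and at 136 of 307 (44.3%) in replicate 2. This was most frequent at promoter-near hairpins, 76.0% and 61.2%, and less so at intronic ones, 40.8% and 30.4%. The midpoint of the best peak lay upstream of the hairpin on its own strand in 67.1% and 69.8% of promoter-near hairpins with a peak, in 46.4% and 54.9% of intronic and in 60.3% and 66.0% of intergenic ones. The values just inside and just outside the limit of 2 kb were close. In replicate 1, 33 hairpins had their nearest peak 1501 to 2000 bp away (median q score 43.3) and 30 had it 2001 to 2500 bp away (37.9). In replicate 2 these were 36 hairpins (42.4) and 36 hairpins (39.4). The median distance to the nearest peak was 22238 bp and 37497 bp for intergenic hairpins, and 6172 bp and 13042 bp for intronic ones.

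**Figure D3:**
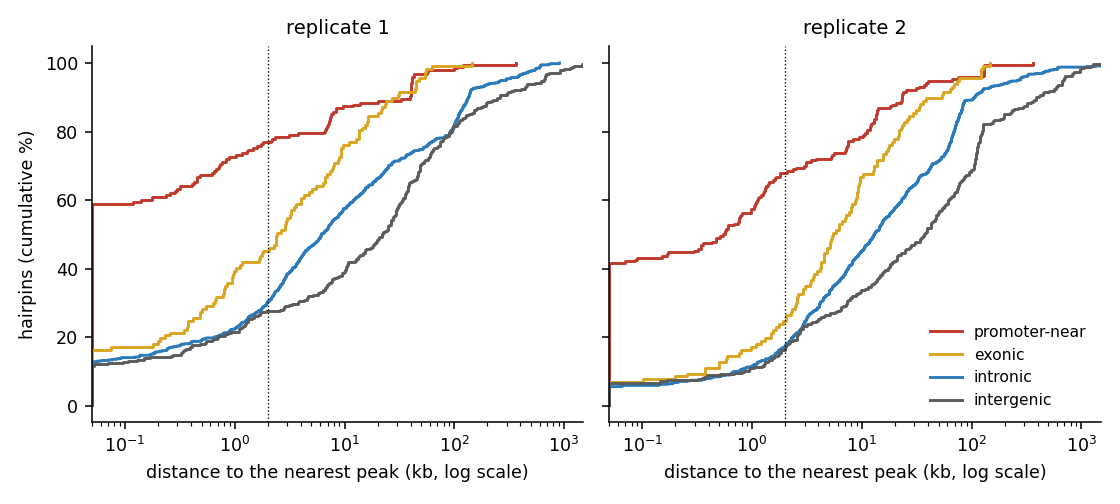
Cumulative share of hairpins (%) by distance to the nearest peak (kb, log scale, with the shortest distances drawn at the left edge), by position class and replicate. The dotted line marks 2 kb; promoter-near hairpins start at the highest share and the intergenic curve is the last to rise, with a median of 22238 bp in replicate 1 and 37497 bp in replicate 2.

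The let-7 hairpins were divided in their occupancy. Of 11 let-7 hairpins at 8 loci, the same number, 4, had a peak within 2 kb in replicate 1 and in replicate 2, and these were Mirlet7i, Mirlet7e, Mirlet7b and Mirlet7c-2 in both. This was 36.4% of the let-7 hairpins in each replicate, close to the 38.6% of all hairpins in replicate 1 and above the 26.0% in replicate 2, and it rested on 3 loci. The other 7 had none in either replicate. Mirlet7i (chr10:122985640-122985724, minus strand) lies outside RefSeq genes. A peak covered the hairpin in each replicate, at 122984930 to 122987039 with a q score of 567 in replicate 1 and at 122985104 to 122986891 with a q score of 210 in replicate 2. The log2 ratios were 4.79 and 3.72. Both peaks also covered a TSS of the GENCODE long noncoding gene D630033A02Rik, which contains the hairpin and starts 0.149 kb upstream of its middle.

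The sequence under the shared peak at Mirlet7i is shown for its many CpGs, the dinucleotide that is dense in CpG island promoters. The 2 kb around Mirlet7i held 206 CpGs, where the median over all intergenic hairpins with a peak in both replicates was 35. The 300 bases in the middle of the bases shared by both peaks, chr10:122985847-122986146 on the minus strand, held 52 CpGs, shown in capitals, at a GC content of 80.7%.
Mirlet7i peak: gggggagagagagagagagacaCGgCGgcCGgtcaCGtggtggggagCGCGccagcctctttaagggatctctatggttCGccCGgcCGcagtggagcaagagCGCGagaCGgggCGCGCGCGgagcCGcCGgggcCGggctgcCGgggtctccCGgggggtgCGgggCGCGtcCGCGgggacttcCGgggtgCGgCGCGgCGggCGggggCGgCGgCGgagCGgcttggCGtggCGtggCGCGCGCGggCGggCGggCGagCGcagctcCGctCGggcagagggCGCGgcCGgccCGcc

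Mirlet7e (chr17:17830352-17830444, plus strand) lies between Mir99b and Mir125a in 1 cluster, where Mir125a is the homologue of nematode lin-4. A peak from 17825798 to 17830574 (q score 291) covered Mir99b and Mirlet7e in replicate 1. In replicate 2 the peak from 17826014 to 17829023 (q score 138) ended 1164 bp before Mir99b and 1328 bp before Mirlet7e. Both peaks covered a TSS of Spaca6, a sperm acrosome membrane protein gene, 3.24 kb upstream of Mirlet7e. Mirlet7b (chr15:85707319-85707403) and Mirlet7c-2 (chr15:85706603-85706697), both on the plus strand and in exons of the noncoding gene Lncppara, had weaker peaks, with best q scores of 80.5 and 50.3. The best peak of replicate 1 lay upstream of both hairpins, 75 bp from Mirlet7c-2, and that of replicate 2 lay downstream, 972 bp from Mirlet7b, so the best peaks did not overlap. Replicate 2 also had a weaker peak (q score 34.5) 497 bp upstream of Mirlet7c-2, inside the replicate 1 peak.

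The remaining let-7 hairpins had peaks only at a distance. Mirlet7a-1 (chr13:48538179-48538272), Mirlet7f-1 (chr13:48537829-48537917) and Mirlet7d (chr13:48536012-48536114) lie together on the minus strand. Their nearest peak in replicate 1 was 6.84 kb from Mirlet7a-1, upstream, with a q score of 728. Replicate 2 had an upstream peak with a q score of 208 that overlapped it, and a weaker downstream peak (48.3) somewhat nearer. The upstream peaks, 48545112 to 48547184 and 48545491 to 48547076, covered the only TSS of the GENCODE long noncoding gene 6720427I07Rik, which contains all 3 hairpins. Mirlet7g, in an intron of Wdr82, had its nearest peak 2.62 kb away in replicate 1 (q score 55.5) and 6.76 kb away in replicate 2 (157). The latter lay at the Wdr82 TSS. For Mirlet7c-1 with Mir99a, Mirlet7a-2 with Mir100 and Mirlet7f-2 with Mir98, the nearest peaks lay 3.81 to 11.2 kb from the hairpins in replicate 1 and 28.9 to 199 kb away in replicate 2.

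When host promoters in place of hairpins were considered, the let-7 genes were alike. All 11 let-7 hairpins lie inside a GENCODE gene on the same strand, and for each of them a host had a peak within 2 kb of a TSS in both replicates. They share hosts: 6720427I07Rik contains 3 of them and Lncppara 2. Of all 53110 GENCODE genes that are not miRNAs, 39.0% had such a peak in replicate 1, 33.5% in replicate 2 and 30.9% in both. Among the 683 GENCODE genes that contain any hairpin the share with a peak in both was 80.2%, so a peak was frequent at hosts in general. These shares count genes and the let-7 value counts hairpins. Hosts also have more annotated TSSs, a median of 5 against 1 for all genes, and the let-7 hosts had from 1 to 40. The q scores at host TSSs were 728 and 208 for Mirlet7a-1, Mirlet7f-1 and Mirlet7d, 567 and 210 for Mirlet7i, 412 and 157 for Mirlet7g in Wdr82, 291 and 138 for Mirlet7e, and 276 and 88.1 for Mirlet7f-2 in Huwe1. They were 197 and 82.8 for Mirlet7b and Mirlet7c-2, 113 and 38.8 for Mirlet7c-1 in Mir99ahg, and 32.8 and 38.3 for Mirlet7a-2, whose hosts have the 40 TSSs. The distance from that TSS to the hairpin ranged from 0.149 kb at Mirlet7i to 271 kb at Mirlet7c-1. This comparison used GENCODE M21 and was added after the RefSeq values were seen.

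**Figure D4:**
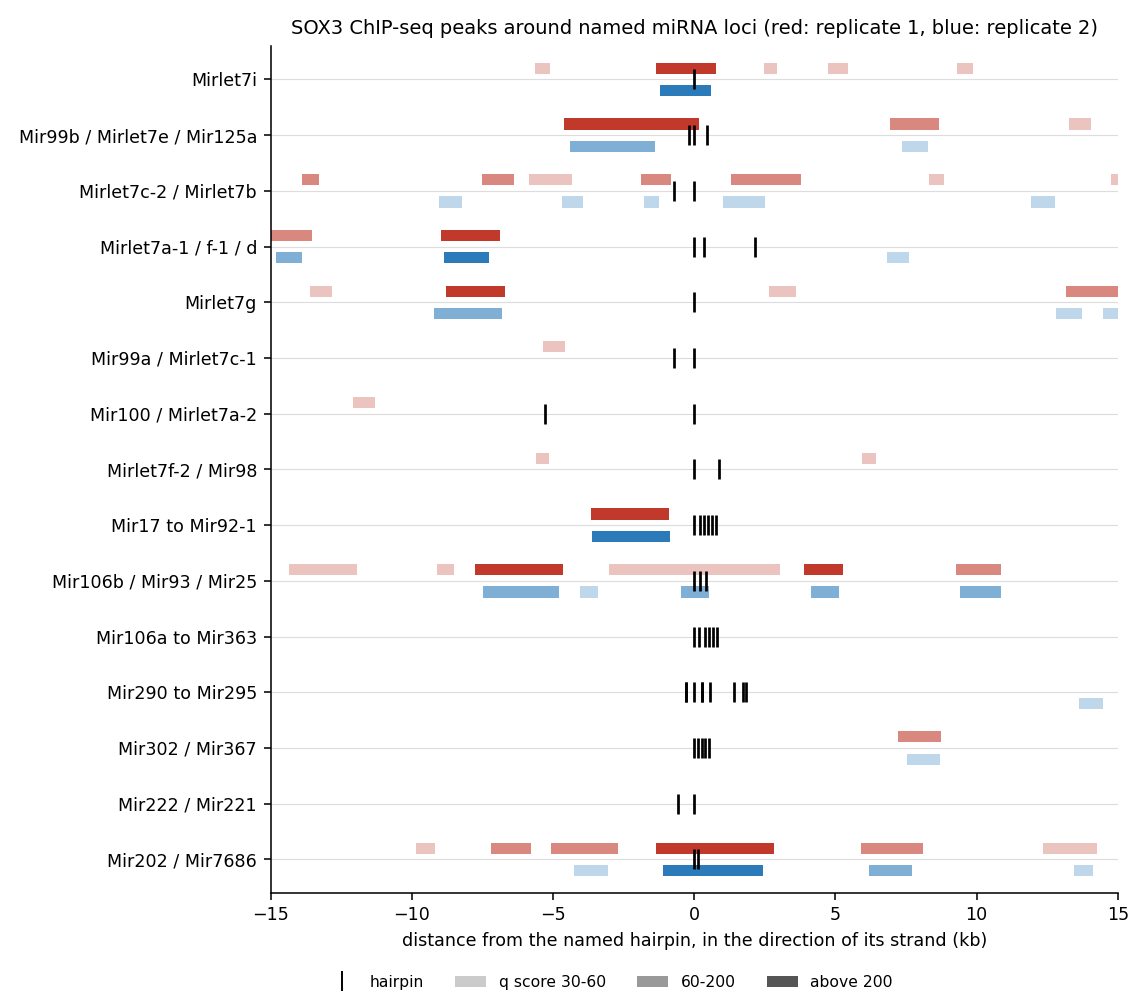
SOX3 ChIP-seq peaks (bars, replicate 1 in red above, replicate 2 in blue below, darker for higher q score) around 1 hairpin of each named locus, at 0, in the direction of its strand (kb), with hairpins of the locus as black ticks. Peaks cover or lie within 2 kb of Mirlet7i, Mirlet7e, Mir17, Mir106b and Mir202 in both replicates. Others lie about 7 kb upstream of Mirlet7a-1 and Mirlet7g, and none is drawn within 2 kb of the hairpins of the Mir106a, Mir290, Mir302 and Mir221 clusters.

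At the Mir17 cluster (chr14:115043671-115044506, plus strand), all 6 hairpins (Mir17, Mir18, Mir19a, Mir20a, Mir19b-1 and Mir92-1) had the same peak within 2 kb in each replicate. It spanned 115040045 to 115042832 in replicate 1, with a q score of 609 and a log2 ratio of 5.32, and 115040095 to 115042868 in replicate 2, with a q score of 234 and a log2 ratio of 3.96. The peaks ended 838 bp and 802 bp upstream of Mir17, and 1594 bp and 1558 bp upstream of Mir92-1. No peak covered a hairpin. In GENCODE the host gene Mir17hg starts at 115042879, 46 bp and 10 bp after the end of the peaks. RefSeq places the Mir17hg TSS inside the cluster, which is why these hairpins count as promoter-near here.

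The 300 bases in the middle of the shared peak, chr14:115041313-115041612 on the plus strand, lie 2250 bp upstream of Mir17. They held 50 CpGs, again in capitals, at a GC content of 81.3%, whereas the 2 kb around the Mir17 hairpin itself held 27.
Mir17 peak: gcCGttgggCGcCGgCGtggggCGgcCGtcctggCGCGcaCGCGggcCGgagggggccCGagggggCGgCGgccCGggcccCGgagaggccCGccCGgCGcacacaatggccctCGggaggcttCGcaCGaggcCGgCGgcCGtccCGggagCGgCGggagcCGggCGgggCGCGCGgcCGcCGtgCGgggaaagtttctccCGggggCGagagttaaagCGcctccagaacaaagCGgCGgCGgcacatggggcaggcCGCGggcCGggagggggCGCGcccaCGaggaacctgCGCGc

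The paralogous clusters differed from each other. Mir106b (chr5:138165737-138165818), Mir93 and Mir25 lie in an intron of Mcm7, a DNA replication helicase gene, on the minus strand. All 3 hairpins were covered by a peak in each replicate, 138162753 to 138168801 with a q score of 52.2 in replicate 1 and 138165243 to 138166251 with a q score of 73.2 in replicate 2. Upstream, within 2 kb of a Mcm7 TSS, stronger peaks had q scores of 294 and 145. The X-linked cluster from Mir106a (chrX:52742503-52742567) to Mir363 had no peak within 2 kb at any of its 6 hairpins. The nearest peaks lay 48.0 to 48.8 kb away in replicate 1 and 127 to 128 kb away in replicate 2. By seed, 4 of the 7 hairpins with a mature sequence carrying AAAGUGC had a peak in both replicates, those being Mir17, Mir20a, Mir93 and Mir106b, at 2 loci. For AUUGCAC 3 of 7 did, namely Mir92-1, Mir25 and Mir92b. Of all hairpins 22.5% did, and counts this small, with hairpins on shared peaks, do not set a family apart.

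Neither cluster of the embryonic stem cell miRNAs had a peak within 2 kb. The 9 hairpins from Mir290a to Mir295 (chr7, from 3218626 to 3220841) lay 39.7 to 41.2 kb from the nearest peak in replicate 1 and 11.7 to 13.9 kb from it in replicate 2, where that peak had a q score of 51.2. The 5 hairpins of Mir302a to Mir302d and Mir367 (chr3, from 127545228 to 127545807, plus strand) lay 6.65 to 7.16 kb from the nearest peak in replicate 1 (q score 127) and 6.99 to 7.50 kb in replicate 2 (44.7), downstream of the hairpins, which lie within Larp7 on its opposite strand. In RefSeq both clusters are promoter-near, through the noncoding genes D7Ertd143e and Gm51018, so these 14 hairpins were part of the 41 promoter-near hairpins without a peak in either replicate. In GENCODE the TSS nearest to Mir291a was 30612 bp away. The 2 kb around Mir291a held 63 CpGs and that around Mir302b 25, against a median of 79 at promoter-near hairpins with a peak in both replicates. Of the 5 hairpins with a listed mature sequence carrying AAGUGCU none had a peak.

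Mir221 (chrX:19146294-19146388) and Mir222 (chrX:19146893-19146971), on the minus strand and outside genes, were the farthest from any peak among these loci. The nearest peak lay 913 kb and 912 kb away in replicate 1, and 983 kb away from both in replicate 2. The lists give peaks only, so occupancy below the threshold of the lists was not detectable at any of these loci, and no limit could be set without read counts at the loci.

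Intronic and exonic miRNAs are mostly made from the host transcript, so occupancy was next taken at the TSSs of RefSeq host genes. Of 749 hairpins inside a gene on the same strand, 85.7% in replicate 1 and 71.2% in replicate 2 had a host with a peak within 2 kb of a TSS (78.4% ± 10.3 (SD, n = 2)). Both replicates had one for 512 of them (68.4%), and for 474 of the 594 host genes (79.8%). Of all 24954 RefSeq genes with a curated transcript that are not miRNAs, 63.9% and 56.1% had such a peak, and 53.6% in both. Among 527 hosted intronic hairpins the share in both replicates was 65.3%. Of the 338 of these with no peak within 2 kb of the hairpin in either replicate, 187 (55.3%) had a host with a TSS peak in both. By hairpin this was near the 53.6% of all genes, and by host gene it was 173 of 234 (73.9%). A single host, Sfmbt2, holds 71 hairpins and had no TSS peak in replicate 2, which lowers the share by hairpin. Hairpins with a host TSS peak but none nearby included Mir15a and Mir16-1 in Dleu2, with host q scores of 418 and 138. Others were Mir15b and Mir16-2 in Smc4, a condensin gene, with 211 and 154. The hairpins of both hosts lay 3.03 kb or more from any peak.

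Some intergenic hairpins of RefSeq lie near or in a GENCODE gene. Of all 282, 61 were inside a GENCODE gene on the same strand and 69 were within 2 kb of a GENCODE TSS. Of the 39 with a peak in both replicates, 14 were inside such a gene and 16 were within 2 kb of such a TSS. The other 23 were among the 213 intergenic hairpins farther from a TSS of either annotation. Peaks near hairpins were also set against all peaks. In replicate 1, 507 peaks (0.869% of the list) lay within 2 kb of a hairpin, and in replicate 2, 323 (0.832%). Of these, 38.7% and 48.0% lay within 2 kb of a TSS, against 27.5% and 34.6% of all peaks. Among peaks away from a TSS, the median q score was 43.3 and 41.9 near a hairpin and 37.9 and 36.5 over all such peaks.

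Leaving out every peak within 2 kb of a TSS lowered the count of hairpins with a peak in both replicates from 266 to 108, the count of intronic ones from 77 to 58 and that of intergenic ones from 39 to 33. The share of bases near the remaining peaks was not computed, so these lower counts have no base share to be set against.

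The strongest loci shared by the replicates were ranked by the mean rank of their best q score. Mir207 (chr4:40722917-40722995), in the HSP40 chaperone gene Dnaja1, came first, with a peak over hairpin and host TSS of q score 912 and 451. The next were Mir5615-1 and Mir5615-2 beside the kinase gene Map2k2 (842 and 368), Mir1894 in the protein phosphatase regulator gene Ppp1r10 (903 and 330) and Mir6935 in the cytoplasmic actin gene Actg1 (726 and 314). These were followed by Mir5121, in the ribosomal protein gene Rpl13a with its snoRNAs, together with Mir150 (660 and 322), Mir1982 in the ornithine decarboxylase antizyme gene Oaz1 (695 and 267), Mir5627 at the chaperone gene Dnajb9 (660 and 268), Mir202 with Mir7686 (605 and 255), Mir6975 in the RNA helicase gene Ddx39b (556 and 294) and Mir762 at Bcl7c (687 and 223). Of these 10 loci 8 were promoter-near, Mir1982 was intronic, at 2140 bp from the Oaz1 TSS, and Mir202 with Mir7686 intergenic.

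Mir202 (chr7:139957689-139957760) and Mir7686, on the minus strand, lie 13832 bp from the nearest RefSeq TSS, that of Utf1, and in the GENCODE gene Gm2044, whose TSS is 0.315 kb upstream of the middle of Mir202. A peak covered both hairpins and this TSS from 139954910 to 139959063 in replicate 1 and from 139955307 to 139958845 in replicate 2. The log2 ratios were 5.31 and 3.45. Unlike those of Mirlet7i and Mir17, the middle of this peak was poor in CpGs. The 300 bases chr7:139956926-139957225 on the minus strand, 649 bp downstream of Mir202, held 2 CpGs (in capitals) at a GC content of 44.7%.
Mir202 peak: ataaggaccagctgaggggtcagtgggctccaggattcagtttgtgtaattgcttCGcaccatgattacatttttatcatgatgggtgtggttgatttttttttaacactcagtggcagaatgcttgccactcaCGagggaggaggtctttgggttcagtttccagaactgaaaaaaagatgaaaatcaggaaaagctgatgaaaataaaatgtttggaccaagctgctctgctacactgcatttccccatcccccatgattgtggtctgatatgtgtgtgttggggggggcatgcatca

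Beyond these, the highest intronic loci were Mir7655 in Mllt10 (q scores 515 and 214), Mir6976 in the serum response factor gene Srf (431 and 195), Mir7663 in Tbpl1 (347 and 187), which encodes a TBP-like factor needed for spermiogenesis, Mir467f (403 and 152), whose hairpin was 85.0% repeat-masked, and Mir6930 in Slc25a39 (371 and 153). The highest intergenic loci were Mir760 (412 and 156), Mir1946b (364 and 162), Mir195a with Mir497 and Mir497b (380 and 153 as the best of the locus), Mir7671 (241 and 102) and Mir203 (177 and 116). At Mir203, an epithelial miRNA, the peak covered the hairpin in both replicates and the surrounding 2 kb held 127 CpGs. Several of these hairpins lay just beyond 2 kb from a RefSeq TSS. The distance was 2014 bp for Mir7663, 2117 bp for Mir7655, 2428 bp for Mir467f, 2592 bp for Mir1946b and 2778 bp for Mir195a. The Mir7663 peaks covered a TSS of Tbpl1, and the Mir760 peaks covered a TSS of the GENCODE gene Gm17494. Mir7671 was farther, 6359 bp from a RefSeq TSS. High scores in these classes thus need not lie away from promoters.

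The miR-15 family, which targets cell-cycle genes, was looked at after these values were seen, since Mir195a, Mir497 and the X-linked Mir322 carry its seed AGCAGCA, and Mir503 (seed AGCAGCG) lies beside Mir322.
miR-195a-5p: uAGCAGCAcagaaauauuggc
miR-497a-5p: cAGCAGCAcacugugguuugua
miR-322-5p: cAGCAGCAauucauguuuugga
miR-503-5p: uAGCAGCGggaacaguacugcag
miR-15a-5p: uAGCAGCAcauaaugguuugug

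Of 11 hairpins with a mature sequence carrying AGCAGCA, 3 had a peak in both replicates, Mir195a, Mir497 and Mir322. They lie at 2 loci, and the share is near the 22.5% of all hairpins. Mir15a, Mir15b, Mir16-1 and Mir16-2 had one only at the host TSS, as given above.

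Among 18 hairpins of miRNAs with known roles in testis or its cells, 11 had a peak in replicate 1 (61.1%, against 38.6% of all hairpins), 7 in replicate 2 (38.9%, against 26.0%) and 4 in both. The count in both was near the 22.5% of all hairpins. These 4 were Mir202, Mir125a (in the Mirlet7e cluster), Mir34b and Mir34c. The Mir34b and Mir34c peaks, near a TSS of Hoatz, were weak, 37.4 in replicate 1 and 30.1 in replicate 2, and the best peaks lay on opposite sides of the hairpins, though a weaker replicate 1 peak overlapped that of replicate 2. The related Mir449a, Mir449b and Mir449c in Cdc20b, active in multiciliated and meiotic cells, had a peak in replicate 1 only (40.3), and so had Mir34a (32.6), Mir184 (32.8), Mir10a (34.1) and Mir10b (31.1). Mir21a, a miRNA of spermatogonial survival in an exon of Vmp1, had one in replicate 2 only (48.3), 1195 bp away, as did Mir146 (33.9) and Mir125b-1 (33.9). Mir31, Mir383, Mir204 and Mir125b-2 had none. Peaks found in a single replicate thus had q scores between 31.1 and 48.3 here, close to the threshold of 30.

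On the X chromosome 11 of 90 hairpins (12.2%) had a peak in replicate 1 and 7 (7.78%) in replicate 2 (10.0% ± 3.14 (SD, n = 2)), against 1.91% and 1.14% of the bases of X. On the autosomes 40.8% and 27.5% of 1090 hairpins did (34.2% ± 9.41), against 10.6% and 7.26% of bases. A peak in both replicates was present at 7 X-linked hairpins (7.78%; bases of X 1.01%) and 259 autosomal ones (23.8%; autosomal bases 4.78%). The X share was lower than the autosomal share in each replicate by more than the spread between replicates. Hairpins on X exceeded the bases of X by a larger ratio (6.40 and 6.80) than autosomal hairpins exceeded theirs (3.85 and 3.79). The X values rested on few loci, 5 of 47 with a peak in replicate 1 and 4 in replicate 2. Exact binomial intervals of the X shares were wide, 6.26% to 20.8% and 3.18% to 15.4%. The ratios on X were thus imprecise, and whether they differ from the autosomal ratios was not tested.

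The 7 X-linked hairpins were Mir351, Mir503 and Mir322 in the noncoding gene C430049B03Rik, Mir5132 and Mir718 at Irak1, Mir5617 in Syn1 and Mir7093 at Armcx3. Mir351 was covered by a peak in both replicates with q scores of 176 and 97.0, and Mir322 had best scores of 196 and 97.0. Of the 90 hairpins on X, 79 had no peak within 2 kb in either replicate. Among these were the 19 hairpins of the X-linked clusters that are expressed in testis, from Mir743 to Mir465, which form 1 locus here. Their nearest peaks lay 36.4 to 98.7 kb away in replicate 1 and 36.3 to 98.6 kb in replicate 2.

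Other large clusters were also without shared peaks. The 71 hairpins of the Mir297, Mir466, Mir467 and Mir669 families in an intron of Sfmbt2, a rodent-specific expansion expressed in placenta and stem cells, lay at least 91.2 kb from a peak in replicate 1 and 60.5 kb in replicate 2. Of these hairpins 93.0% were repeat-masked over at least 50% of their length, and reads that fit several places were placed at random before peaks were called. The part of this in the result was not tested. The Sfmbt2 TSS had a peak in replicate 1 (q score 52.4) and none in replicate 2. The imprinted cluster between Meg3 and Mirg on chromosome 12 had 60 hairpins, of which 7 had a peak in replicate 1, 1 in replicate 2 and none in both. The peaks had q scores of 31.4 to 51.8 and of 31.9. At the Meg3 TSS, however, both replicates had a peak (80.9 and 42.1).

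The number of CpGs around the hairpins differed with occupancy in every class, as a description. In the 2 kb centred on the hairpin the median number of CpGs was 48 at hairpins with a peak in both replicates, 32 with a peak in 1 and 19 with none. Among promoter-near hairpins the medians were 79, 44 and 28, among exonic ones 44, 33.5 and 24, among intronic ones 36, 31 and 19, and among intergenic ones 35, 27 and 17. The median GC content was 54.2% with a peak in both and 42.8% with none. Hairpins repeat-masked over at least 50% of their length made up 5.26% of those with a peak in both replicates and 16.4% of those with none. By class, this held in the intronic class (3.90% against 23.5%), which holds the masked hairpins of the Sfmbt2 cluster. The shares were 5.56% against 2.44% at promoter-near, 4.17% against 3.39% at exonic and 7.69% against 9.18% at intergenic hairpins. The part of base composition in occupancy was not tested. Without the hairpins masked over at least 50%, 24.2% had a peak in both replicates.

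**Figure D5:**
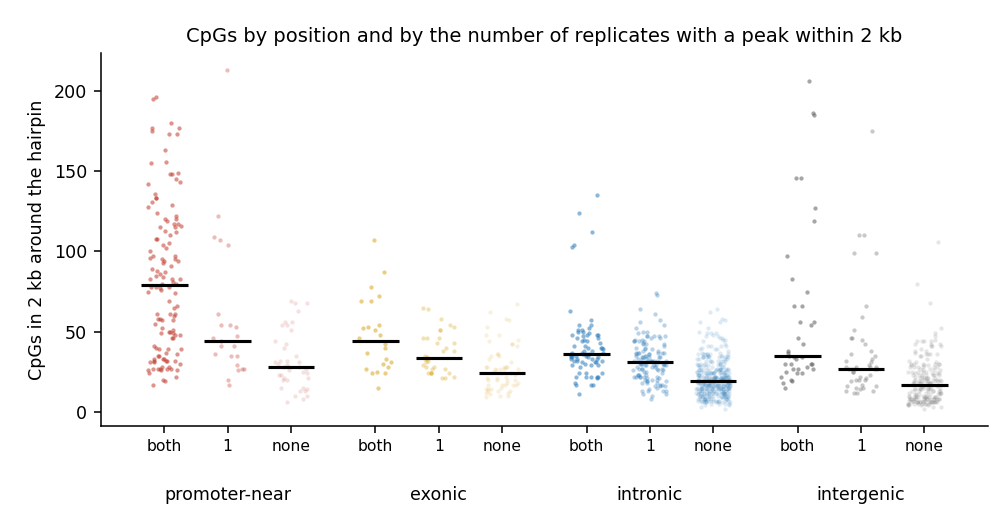
CpGs in the 2 kb centred on each hairpin (points), by position class and by whether both replicates, 1 replicate or none had a peak within 2 kb. Black lines are medians; they fall from 79 to 44 and 28 at promoter-near hairpins and from 35 to 27 and 17 at intergenic ones.

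The SOX core motifs ACAATG and ACAAAG were sought on both strands in the 300 bp at the middle of each peak. At least 1 of them was present in 26.8% of the peaks within 2 kb of a hairpin in replicate 1 and 27.6% in replicate 2, against 29.1% and 27.7% of all peaks of these lists. Among peaks away from a TSS the shares were 29.9% and 29.2% near hairpins, against 33.0% and 32.7%. No share was computed for sequence outside peaks, so enrichment of these short motifs over other sequence cannot be read from the values. The stretch printed for Mir17 contains both motifs on the strand shown, and those printed for Mirlet7i and Mir202 contain neither on either strand.

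In the ChIP-nexus lists, which come from a variant of ChIP with exonuclease trimming and hold 110 and 18 mouse peaks, 1 hairpin had a peak within 2 kb, and it was Mir101c (chr9:3038669-3038743, minus strand) in both replicates. The peaks were 38683 bp and 15246 bp wide, with fold enrichments of 34.2 and 33.3 at the summit, and ended 177 bp and 266 bp from the hairpin. Of the Mir101c hairpin 62.7% was repeat-masked. The nearest ChIP-seq peak was 161 kb away in either replicate. Per the study's reporting summary, the ChIP-nexus libraries held far fewer unique reads than the ChIP-seq libraries.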

How the data were processed

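Peaks of 2 replicates of SOX3 ChIP-seq and 2 of SOX3 ChIP-nexus (P7 mouse testis) were used. Per the study's methods the authors aligned reads to mm10 with Novoalign, placed reads that fit several places at random, removed duplicates with Picard, and called peaks with USeq, keeping q scores above 30, and with MACS. No header names the columns of the ChIP-seq lists as deposited, 1 list per replicate. From their values and layout, they were taken to be USeq output with a p score, a q score (−10log10 p-values) and a log2 ratio of ChIP over input, a ratio normalised by the authors. The deposited ChIP-nexus lists, in the format of MACS2 2.1.1 (named in the submitters' processing notes), give a score, fold enrichment, −log10 p and −log10 q per peak. The lists hold no read counts; the study's reporting summary gives library totals, with more reads for replicate 2 of the ChIP-seq than for replicate 1, which were not used here.

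Hairpins and TSSs of genes that are not miRNAs came from RefSeq (curated transcripts, GRCm38.p6) and sequences from the same assembly. A hairpin was promoter-near (within 2 kb of a TSS), otherwise exonic, intronic or intergenic, with genes of both strands counted. Distances are between edges. Base shares exclude assembly gaps. Analyses used Python 3.11.15 with pandas 2.3.3 and scipy 1.17.1, and distances were compared with those of bedtools 2.31.1 and checked on planted peaks in simulated data. No test across features was made. Values are given per replicate with mean ± SD (n = 2), and shares in both replicates with exact binomial (Clopper-Pearson) 95% intervals. Per the study's reporting summary, the replicates were independent biological ones.

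Named hairpins were the families of the opening, a testis list, 3 large cluster groups, the 10 loci ranked first by q score, averaged over the replicates' ranks, and the 5 highest remaining loci of the intronic and of the intergenic class. The members and lists were chosen with earlier results of these data known. Alternatives covered distance, threshold, unit, position rules, peaks at TSSs and leaving out a replicate.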

Additional observations from a re-analysis of the deposited data

How the results depend on the processing

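No paired analysis was possible because the results come from no test. Of 59 alternative values that did not leave out a replicate, 35 counted as unchanged and 24 as moved. A value was unchanged when it lay within the spread or interval of the value reported. The log2 ratio only had to keep its sign, and the ChIP-nexus count to stay within 1.5-fold. Leaving out each replicate gave 26.0% to 38.6% of hairpins with a peak, 67.9% to 76.8% of promoter-near, 17.3% to 30.3% of intronic, 16.7% to 27.7% of intergenic 7.78% to 12.2% of X-linked ones, 71.2% to 85.7% with a peak at a host TSS, a difference of 66.9 to 183 in median q score between promoter-near and intergenic hairpins, and 1 hairpin with a ChIP-nexus peak. With overlap (0 bp) the shares were 15.7% of all hairpins, 50% promoter-near, 8.80% intronic, 9.04% intergenic, 6.11% X-linked and 9.58% in both replicates. Within 1 kb they were 65.0% promoter-near and 16.5% in both. Within 5 kb they were 44.4% of all, 39.6% intronic, 17.2% X-linked and 35.4% in both. Above a q score of 60 they were 16.1% of all, 58.9% promoter-near, 7.36% intronic, 7.98% intergenic, 11.6% in both and 57.3% for host TSSs. Per locus 25.7% had a peak in both, and 19.1% of hairpins where the replicates' peaks overlapped by 50%. Without peaks at TSSs 19.0% of all hairpins had a peak and 9.15% had one in both. Promoter-near hairpins had a peak in 63.4% with a 5 kb window and in 55.9% with GENCODE M21 TSSs. The promoter-near share was the highest of the 3 shares in each alternative that gave it. The order of the intronic and intergenic shares, which lay within the spread, turned with overlap, above a q score of 60, with same-strand genes, with a 5 kb promoter window and with GENCODE. The alternatives with GENCODE, all miRNA genes, a common p score minimum and no repeat-masked hairpins were chosen after seeing the data. Peaks alone set the limits: without read counts, an unlisted peak cannot be read as absent occupancy, and the cause of the moves was not tested beyond what each alternative's construction implies.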

Other observations

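Lists of miRNAs known from other tissues were counted as well, without a test; the lists were chosen after other values of these data were seen. Of 12 hairpins of neural miRNAs, 8 had a peak within 2 kb in replicate 1, 4 in replicate 2 and 4 in both, against 38.6%, 26.0% and 22.5% of all hairpins. The 4 were Mir124a-3 (q scores 55.5 and 53.5), Mir9-3 (56.4 and 44.7), Mir124a-1 (38.6 and 31.2) and Mir219a-1, next to a promoter (746 and 169). The best peaks of the replicates did not overlap at Mir219a-1. At Mir124a-3 no peak of one replicate covered at least 50% of a peak of the other. The 2 kb around Mir124a-3 held 186 CpGs. Of 10 hairpins of muscle miRNAs, 3 had a peak in replicate 1, 2 in replicate 2 and 1, Mir208a in the cardiac myosin gene Myh6, in both (44.8 and 40.8). The best peaks of the replicates at Mir208a did not overlap. Of 15 hairpins of blood and endothelial miRNAs, 9 had a peak in replicate 1, 4 in replicate 2 and 4 in both. These were Mir150 (660 and 241), Mir142 (62.5 and 33.8, with best peaks that did not overlap), and Mir181c and Mir181d (58.6 and 60.9). The replicate 1 peak at Mir150 was 11643 bp wide and also covered Mir5121 in Rpl13a. In replicate 2 the best peak lay 1508 bp from Mir150, and a weaker one (41.9) covered it. Mir181c and Mir181d had the same best peak in each replicate. In GENCODE Mir181c and Mir181d lie in a transcript of Nanos3, a germ cell gene whose TSS had peaks with q scores of 197 and 103.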
